A study of Mus musculus with 6 samples.

Results

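The endoplasmic reticulum (ER) chaperones and protein disulphide isomerases described here are 10 genes, Hspa5, Hsp90b1, Calr, Canx, P4hb, Pdia3, Pdia4, Pdia6, Pdia5 and Pdia2, out of 18193 genes measured. Each was found by its symbol among the probe sets that the array annotation assigns to 1 gene. The probe set that stands for a gene was chosen by its level, as the 1 with the highest mean over all 6 arrays, and the other probe sets are given beside it. All 10 were found, with 20 probe sets between them. The genes were put together as a family with earlier results of these data known, and Pdia2 was already known there for its difference between the genotypes, so the genotype differences of the family are given as descriptions.

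Affymetrix mouse 430 2.0 arrays were used to measure total RNA from germinal centre B cells of the spleen, which had been enriched on magnetic beads after immunisation of the mice with sheep erythrocytes. The control group was ImHABCL6 (3 arrays), mice in which an immunoglobulin heavy-chain promoter drives HA-tagged BCL6, the repressor that defines germinal centre B cells. The other group was ImHABCL6/Uchl1 (3 arrays), mice that carry the same BCL6 allele together with transgenic Uchl1, a deubiquitinating enzyme. Immunisation and the BCL6 allele are thus shared by all 6 arrays, and the comparison asked how transgenic Uchl1 changes expression on that background. The sources used here do not give the age of the mice, the promoter of the Uchl1 transgene or whether spleens were pooled. The design text counts 3 mice per genotype, and p-values measure the spread between these samples.

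Proteins that a B cell secretes or displays, immunoglobulins above all, are folded in the ER. There HSP70 and HSP90 chaperones hold unfolded chains, lectin chaperones retain glycoproteins until they are folded, and disulphide isomerases make and rearrange the bonds between cysteines. When unfolded protein accumulates, the unfolded protein response induces these genes through ATF6 and XBP1, and plasma cells, the secreting descendants of germinal centre B cells, carry them at high levels.

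Values are log2 expression levels, and no detection calls came with them, so no level can be called absent. The Uchl1 probe set read between 4.999 and 5.02 in the controls and 5.96, 5.87 and 6.02 with the transgene. Its difference was 0.94 (SE 0.12), and every transgenic array lay above every control, yet its limma adjusted p was 0.638. The transgene itself thus did not pass in limma, so a gene that did not pass cannot be read as unchanged. Of 17 germinal centre and B-cell markers 14 were measured, and their mean level lay between 11.05 and 11.15 in the controls and between 10.94 and 11.41 with the transgene. Erythroid markers, described further on, had mean levels of 10.41 to 11.38 in the controls and 8.88 to 10.78 with the transgene in the same preparations. The array of ImHABCL6/Uchl1 replicate 2 had the narrowest spread of values, with an interquartile range of 3.27 against 3.45 to 3.65 for the other arrays, and the lowest limma array weight (0.297, against 0.507 to 3.30). Genes with mean levels between 8 and 9 read a median of 0.28 below the other 5 arrays there, and genes between 4 and 5 read a median of 0.16 above them. Results that rest on this array are therefore given with and without it.

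The promoters of the family are shown because the ER stress response element, the sequence through which ATF6 acts with the factor NF-Y, was first described in promoters of ER chaperone genes. The element reads CCAAT, then 9 bases of any kind, then CCACG, and it was searched on both strands of the 300 bases from 250 before to 50 after each annotated start. RefSeq promoters of build GRCm38.p6 matched all 10 genes. The element was present in the promoters of 5 of the 10 (Hspa5, Hsp90b1, Calr, Canx and Pdia6) and in 0.119% of all 32851 promoters, 39 in number. Because such genes served to define the element, this count is a description. Its second form (ATTGG, 1 base of any kind, CCACG), in 0.0365% of promoters, and the XBP1 and ATF6 motif TGACGTGG, in 0.676%, were in 0 of the 10. Of the other ER genes listed further on, Ero1b, Creld2, Dnajc3, Derl3 and Syvn1 carried the whole element, all named because they are the complete set, with Creld2 and Derl3 outside the rule for named genes.

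The 250 bases before the start of Hspa5, 5′ to 3′ in the direction of the gene, hold 1 exact match to the element. It lies 65 to 47 bases upstream, and capitals mark its fixed letters. Here and below, partial matches were not counted.
Hspa5, chr2:34771840-34772089, plus strand: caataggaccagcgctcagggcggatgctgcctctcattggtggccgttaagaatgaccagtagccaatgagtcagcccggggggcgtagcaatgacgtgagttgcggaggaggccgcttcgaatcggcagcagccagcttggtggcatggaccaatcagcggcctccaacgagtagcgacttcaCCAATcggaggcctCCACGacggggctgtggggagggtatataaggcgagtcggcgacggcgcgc
The other 5 elements are shown with 20 bases on each side, in the direction of the gene, and capitals again mark the fixed letters, which read as CGTGG and ATTGG where the element lies on the opposite strand.
Hsp90b1, distal, chr10:86705618-86705676, minus strand: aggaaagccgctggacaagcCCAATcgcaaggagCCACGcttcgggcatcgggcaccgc
Hsp90b1, proximal, chr10:86705513-86705571, minus strand: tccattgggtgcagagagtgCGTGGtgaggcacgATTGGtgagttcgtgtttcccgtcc
Calr, chr8:84847055-84847113, minus strand: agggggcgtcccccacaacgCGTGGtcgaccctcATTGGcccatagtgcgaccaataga
Canx, chr11:50325780-50325838, minus strand: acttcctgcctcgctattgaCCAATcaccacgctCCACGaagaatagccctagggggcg
Pdia6, chr12:17266471-17266529, plus strand: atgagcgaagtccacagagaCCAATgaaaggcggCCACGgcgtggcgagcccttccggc
Hsp90b1 thus carried 2 elements, 212 to 194 and 107 to 89 bases upstream, on opposite strands. The element of Canx lay 145 to 127 bases upstream, that of Calr 162 to 144 on the opposite strand, and that of Pdia6 98 to 80.
The 250 bases before the start of Pdia2, the gene with the largest genotype difference of the family, held no whole element, and capitals mark its separate CCAAT and CCACG words, on either strand.
Pdia2, chr17:26199088-26199337, minus strand: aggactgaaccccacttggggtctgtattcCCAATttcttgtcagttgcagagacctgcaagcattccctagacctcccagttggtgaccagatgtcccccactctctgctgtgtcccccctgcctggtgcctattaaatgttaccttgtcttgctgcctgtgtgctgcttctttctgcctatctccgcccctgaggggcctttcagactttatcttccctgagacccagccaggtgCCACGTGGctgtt
Its 2 overlapping CCACG words, 1 on each strand, lay 13 to 6 bases before the start, and its upstream CCAAT word lay 220 to 216 bases before it. These words are common, with CCAAT in 37.4% and CCACG in 32.8% of all promoters, and a match or its absence is a feature of these letters in this window.

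**Figure D1:**
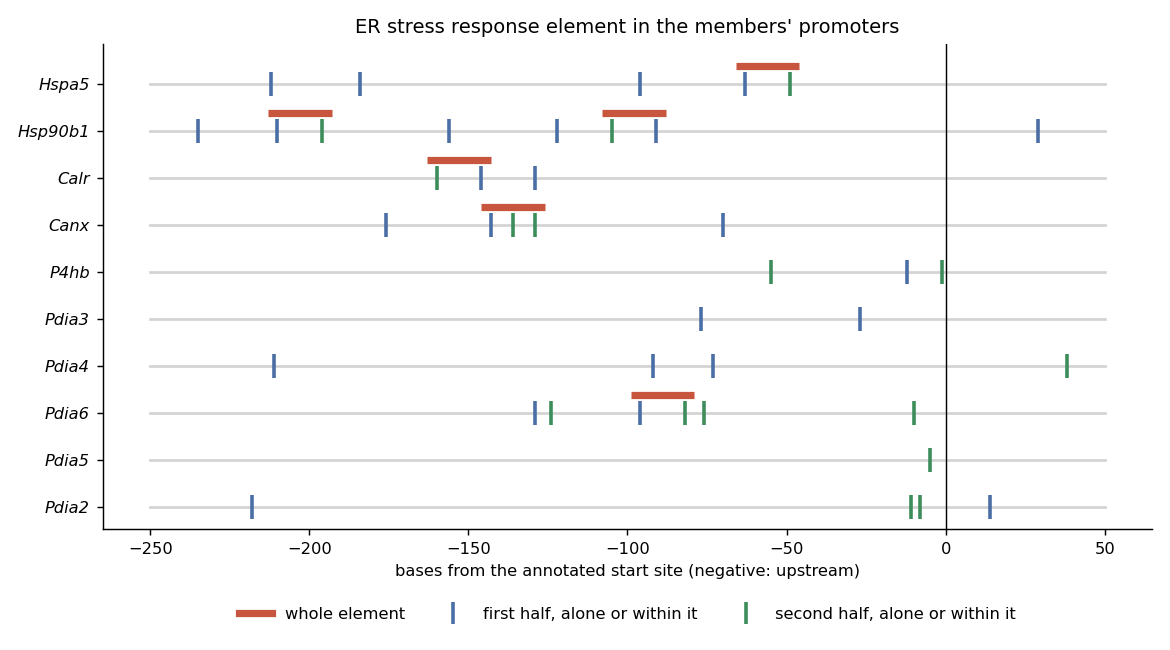
Positions of the ER stress response element (red bars) and of its CCAAT (blue) and CCACG (green) words on either strand in the promoters of the 10 genes, in bases from the annotated start. Red bars appear for 5 genes, Hspa5, Hsp90b1, Calr, Canx and Pdia6, and Hsp90b1 has 2 of them.

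Between the genotypes, 9 of the 10 genes read lower with the Uchl1 transgene and 1, Pdia5, read higher, where 49.4% of all genes and 64.7% of the genes with mean levels of at least 8 read lower. In limma, 0 of the 10 passed an adjusted p of 0.05, as did 0% of all 18193 genes. At an unadjusted p under 0.05, 1 of the 10 (Pdia2) was called beside 4.94% of all genes. On the log2 scale the median difference of the 10, ImHABCL6/Uchl1 minus control, was -0.19, and that of all genes was 0.0029. Pdia2 stood apart at -1.36, and the other 9 differed by -0.32 to 0.18. Without ImHABCL6/Uchl1 replicate 2, 4 of the 10 read lower, beside 48% of all genes, and the median was 0.036. With array weights 2 of the 10 read lower, beside 51.4% of all genes. The arrays hold whole preparations, so fewer cells of a type and less RNA per cell cannot be told apart in any value below.

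**Figure D2:**
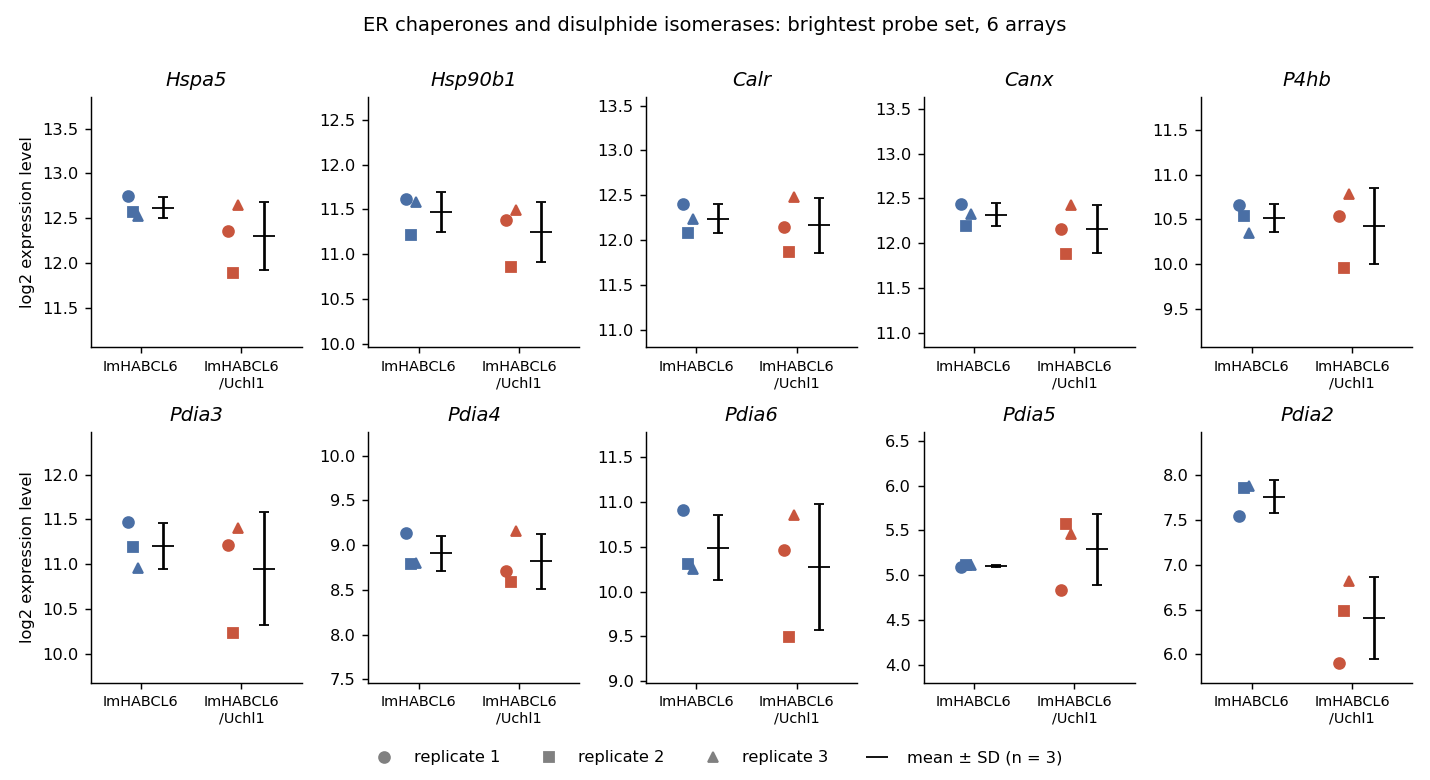
Log2 expression level of the brightest probe set of each gene in the 3 ImHABCL6 (blue) and 3 ImHABCL6/Uchl1 (red) arrays, with mean ± SD beside them, and every panel spans the same range. The groups overlap for 9 genes and are apart for Pdia2, whose controls read 7.55 to 7.88 and transgenic arrays 5.91 to 6.82.

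Hspa5 (BiP, GRP78) is the ER member of the HSP70 family and binds the stress sensors of the unfolded protein response. It read 12.75, 12.57 and 12.53 in the controls and 12.36, 11.89 and 12.64 with the transgene. Transgenic replicate 3 lay within the controls and replicates 1 and 2 below all of them. The difference was -0.32 (SE 0.20, 95% interval -0.78 to 0.14, limma adjusted p = 0.998), from 12.62 ± 0.12 to 12.30 ± 0.38 (SD, n = 3 each), and it was -0.12 without ImHABCL6/Uchl1 replicate 2. The mean was thus 1.25-fold lower, within the spread of the arrays.

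Hsp90b1 (GRP94), the ER member of the HSP90 family, folds Toll-like receptors and integrins. Its level was 11.62, 11.22 and 11.58 in the controls and 11.38, 10.86 and 11.50 with the transgene. Only transgenic replicate 2 lay below all controls. The difference was -0.22 (SE 0.20, limma adjusted p = 0.998), and -0.031 without that array.

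The lectin chaperones, which hold glycoproteins through a trimmed sugar, differed little. Calreticulin (Calr), the soluble form, read 12.40, 12.08 and 12.24 in the controls and 12.14, 11.86 and 12.48 with the transgene. Calnexin (Canx), its membrane-bound relative, read 12.44, 12.19 and 12.33 against 12.16, 11.88 and 12.42. For both genes transgenic replicate 3 lay near the highest control and replicate 2 below every control. For Canx transgenic replicate 1 also lay below every control. The differences were -0.075 (SE 0.18) for Calr and -0.16 (SE 0.17) for Canx, with limma adjusted p = 0.998 for each and 95% intervals of -0.50 to 0.35 and -0.55 to 0.22. Without ImHABCL6/Uchl1 replicate 2 they were 0.075 and -0.028.

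Pdia3 (ERp57) is the isomerase that works with both lectins and in the loading of MHC class I. It varied more, at 11.47, 11.19 and 10.95 in the controls and 11.22, 10.23 and 11.40 with the transgene. Transgenic replicate 2 lay below all controls and both other transgenic arrays lay among them. The difference was -0.25 (SE 0.30, limma adjusted p = 0.998), and 0.11 without replicate 2.

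Pdia6 (P5), which works with Hspa5, had the widest spread of the family after Pdia2. It read 10.91, 10.31 and 10.25 in the controls and 10.47, 9.50 and 10.86 with the transgene, a range of 1.41 over 6 arrays. The 2 highest values belonged to different genotypes. The difference was -0.22 (SE 0.34, 95% interval -1.004 to 0.57), and 0.17 without ImHABCL6/Uchl1 replicate 2.

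P4hb encodes the founding disulphide isomerase, PDI, which is also the beta subunit of collagen prolyl 4-hydroxylase. It read 10.66, 10.54 and 10.35 in the controls and 10.54, 9.95 and 10.78 with the transgene. Pdia4 (ERp72), an isomerase with an additional thioredoxin-like domain, read 9.14, 8.79 and 8.80 against 8.71, 8.58 and 9.16. In both genes the highest array was transgenic replicate 3 and the lowest transgenic replicate 2. For Pdia4 transgenic replicate 1 also lay below every control. P4hb differed by -0.092 (SE 0.22) and Pdia4 by -0.089 (SE 0.19). Without ImHABCL6/Uchl1 replicate 2 the differences were 0.14 and 0.029.

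Pdia5 (PDIR), an isomerase of less well known clients, had a dim probe set, below the median level of all probe sets (5.61). It read 5.09, 5.11 and 5.11 in the controls and 4.83, 5.57 and 5.46 with the transgene. The controls lay close together and the transgenic arrays lay on both sides of them. The difference was 0.18 (SE 0.20, limma adjusted p = 0.998), and 0.043 without ImHABCL6/Uchl1 replicate 2.

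Pdia2 (PDIp) is a disulphide isomerase best known from the exocrine pancreas. Its 1 probe set (1428952_at) read 7.55, 7.86 and 7.88 in the controls and 5.91, 6.49 and 6.82 with the transgene. All 3 transgenic arrays lay below all 3 controls, as for 5.49% of all genes. The other 9 members overlapped between the groups, and 0 of the 10 were higher in all 3 transgenic arrays, beside 3.95% of all genes. The mean level was 7.76 ± 0.19 in the controls and 6.40 ± 0.46 with the transgene (SD, n = 3 each), a log2 difference of -1.36 (SE 0.23, 95% interval -1.90 to -0.82), or 2.56-fold lower. Its limma adjusted p was 0.638, and over the alternatives it ran from 0.145 to 0.9998. The difference stayed between -1.56 and -1.11 in all 15 settings. It was -1.40 without ImHABCL6/Uchl1 replicate 2, the array in which 8 of the other members were lowest.

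Erythroid markers also read lower on average with the transgene. Of 19 listed 16 were measured and 15 of these read lower with the transgene. Of all genes 49.4% did so, and of those with mean levels of at least 8, 64.7%. Their mean level was 10.41, 10.96 and 11.38 in the controls and 8.88, 10.78 and 10.19 with the transgene, so the groups overlapped, and ImHABCL6/Uchl1 replicate 1 was lowest for both the markers and Pdia2. ImHABCL6/Uchl1 replicate 2 lay above control replicate 1 for the markers and below it for Pdia2. The part of erythroid markers in the Pdia2 result was not tested. Pancreatic acinar markers, listed because the pancreas adjoins the spleen, were measured for 16 of 21 genes, of which 9 had means below the median level of all probe sets. Their mean level lay between 5.18 and 5.40 in the controls and between 5.15 and 5.39 with the transgene. Of the 16, 6 read lower with it (median difference 0.032), beside 49.4% of all genes. The brightest, Cela1, named after its values were seen, read 8.54, 8.59 and 8.48 in the controls and 7.23, 7.97 and 8.03 with the transgene. It was thus lower in all 3 transgenic arrays and lowest in replicate 1, as Pdia2 was (limma adjusted p = 0.868). The part of acinar cells in the Pdia2 result was not tested.

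The 8 genes other than Pdia2 and Pdia5, set apart after their values were seen, shared 1 array profile. All 8 were lowest in ImHABCL6/Uchl1 replicate 2, as were 27.9% of all genes and 53.8% of the 5802 genes with mean levels of at least 8. All 8 lay above their own mean in both control replicate 1 and ImHABCL6/Uchl1 replicate 3. Averaged over the 8, the centred level was 0.29, -0.020 and -0.0021 in the controls and -0.0081, -0.54 and 0.28 with the transgene. The 2 arrays with the highest average thus belonged to different genotypes, and the lowest and second highest to the same one.

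ImHABCL6/Uchl1 replicate 2 read below the mean of the other 5 arrays by 0.34 (Pdia4) to 1.06 (Pdia6) for these 8 genes. Pdia3 and Pdia6 were 1.02 and 1.06 below, and Calr and Canx 0.40 and 0.42 below. The medians of all genes in the 1-unit bins between levels of 8 and 13 were 0.19 to 0.28 below. After quantile normalization, which gives every array the same distribution, 7 of the 8 were still lowest in that array, beside 21.1% of all genes. It then read below the mean of the other 5 by 0.067 for Pdia4 and by 0.26 to 0.81 for the rest. Genes with the ER stress response element (0.40 to 1.06 below) and the others of the 8 without it (0.34 to 1.02 below) overlapped. Plasma cell markers, measured for 16 of 16 genes, had mean levels of 8.90 to 9.09 in the controls and 8.92 to 9.15 with the transgene, and 8.92 in ImHABCL6/Uchl1 replicate 2. Of the 16, 5 were lowest and 3 highest in that array, near the shares of all genes, 27.9% and 25.5%. Of genes with mean levels of at least 8, 53.8% were lowest there. Among those lowest there, chosen after their values were seen, Prdm1, the repressor that drives plasma cell differentiation, read 8.68, 7.24 and 7.34 in the controls and 7.82, 6.93 and 7.89 with the transgene. The surface receptor Slamf7 read 9.62, 9.10 and 9.13 in the controls and 9.77, 8.77 and 9.75 with the transgene. Both were thus lowest on the same array as the 8 chaperone genes, as were Mzb1, Trp53inp1 and Xbp1, the last with values given further on. Sdc1, Tnfrsf17 and Fkbp11, which also mark plasma cells, were highest there, at 6.30, 5.80 and 6.52. Their group means were low, at 4.84 to 6.35. Of all genes, those between levels of 5 and 6 read a median of 0.18 above the other 5 arrays there. Genes between 6 and 7 read 0.043 above, and genes between 7 and 8 read 0.21 below. The rest of the list, Jchain, Irf4, Tnfrsf13b, Derl3, Ell2, Cd28, Txndc5 and Prg2, were neither lowest nor highest in ImHABCL6/Uchl1 replicate 2. The part of plasma cell markers in the profile of the 8 genes was not tested.

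**Figure D3:**
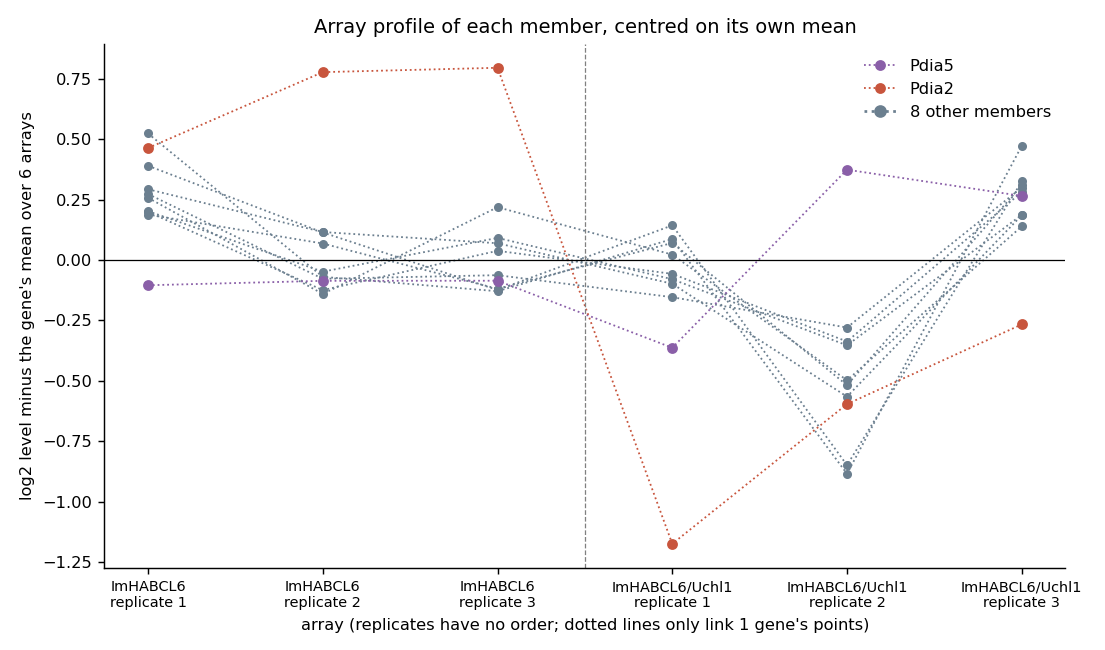
Log2 level of each gene minus its own mean over the 6 arrays, by array; dotted lines link the points of 1 gene. The 8 grey genes are all lowest in ImHABCL6/Uchl1 replicate 2, Pdia2 (red) is low in all 3 transgenic arrays and lowest in replicate 1, and Pdia5 (purple) is highest in replicate 2.

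The genes whose centred profile lay nearest to Pdia2 over the 6 arrays were Cpd (carboxypeptidase D), Sh3d19, Hnrnpll, Sec14l2 and Septin8, with root mean square differences of 0.11 to 0.16 on the log2 scale. Among the family the nearest to Pdia2 was Hspa5, at 0.63 and rank 1211. Nearest to Hspa5 were Lgals9 (galectin 9), Usp9x, Elp4, Ndufb9 and Pccb, at 0.058 to 0.063. Canx was the nearest member to Hspa5, at 0.12 and rank 123 of all genes, followed by P4hb at 0.13. Pdia2 was the farthest member from Hspa5, at rank 17674.

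The further probe sets differed from the brightest ones in direction for some genes. Of all 20 probe sets 15 read lower with the transgene, beside 48.1% of the 34945 probe sets tested, and 0 passed (0% of all, limma). Calr had 3 probe sets at -0.075, -0.082 and -0.14, and Canx 3 at -0.16, -0.33 and -0.049. The second Hsp90b1 probe set differed by -0.085. For Hspa5, 1427464_s_at gave -0.36, while 1447824_x_at gave 0.19 and was highest, at 10.59, in ImHABCL6/Uchl1 replicate 2, where the other 2 were lowest. The dim second probe sets of Pdia3, Pdia4 and Pdia6, with mean levels of 4.74 to 5.46, read higher by 0.15, 0.36 and 0.20. Those of Pdia3 and Pdia4 were higher in all 3 transgenic arrays than in all controls, as were 4.4% of all probe sets (5.13% were lower in all 3), opposite to the bright probe sets of the same genes. Pdia2, P4hb and Pdia5 had 1 probe set each and so no second reading.

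**Figure D4:**
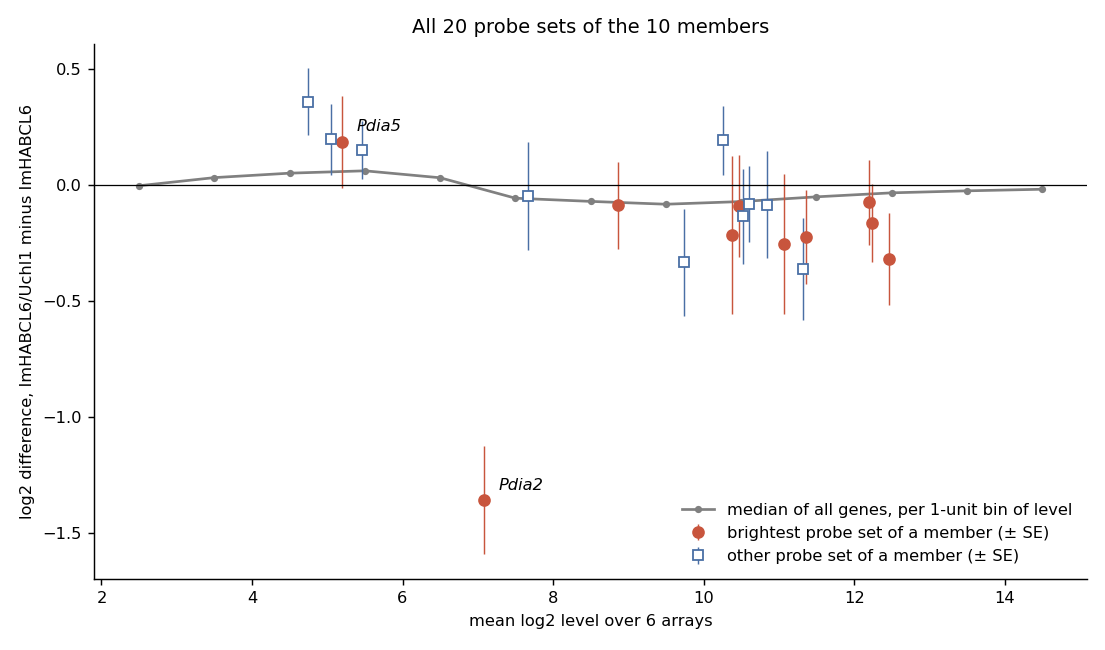
Log2 difference (ImHABCL6/Uchl1 minus ImHABCL6, ± SE) against mean log2 level for the 20 probe sets of the 10 genes, with the median difference of all genes in 1-unit bins of level (grey). Bright probe sets lie mostly between -0.36 and 0, those under a level of 6 lie above 0, and Pdia2 lies apart at -1.36.

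Around the family, 7 lists of other ER genes held 128 genes, of which 123 were measured. In limma 0 of the 123 passed in either direction, and 8 (6.50%) had an unadjusted p under 0.05, beside 4.94% of all genes. Lower readings were seen for 73 (59.3%), beside 49.4% of all genes, with a median difference of -0.038. Of the 98 with mean levels of at least 8, 63 (64.3%) read lower, beside 64.7% of all genes of that level. Without ImHABCL6/Uchl1 replicate 2, 33 of the 123 (26.8%) read lower, beside 48% of all genes, and the median was 0.082. The 48% covers genes of all levels, while 98 of the 123 had mean levels of at least 8. A share for all genes of that level was not computed without ImHABCL6/Uchl1 replicate 2. That array was the lowest for 76 of the 123 (61.8%), beside 27.9% of all genes, and for 70 of the 98 brighter ones (71.4%), beside 53.8% of all genes of that level.

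Among partners of the ER HSP70 and HSP90, 12 of 15 read lower (median -0.10) with all 6 arrays and 4 of 15 without ImHABCL6/Uchl1 replicate 2 (median 0.12). Beside each list, 49.4% of all genes and 64.7% of those with mean levels of at least 8 read lower with all 6 arrays. Without that array 48% of all genes did. The J-domain co-chaperones Dnajb11, Dnajb9 and Dnajc3 differed by -0.14, -0.24 and -0.10. Dnajc3 read 10.74, 10.29 and 10.16 in the controls and 10.35, 9.72 and 10.82 with the transgene, high and low on the same arrays as Pdia6. Translocation and signal peptide genes read lower in 14 of 23 cases (median -0.046), with the channel subunits Sec61a1 at -0.091 and Sec61b at -0.028 and the associated Sec62 at -0.33. Without ImHABCL6/Uchl1 replicate 2, 4 of the 23 were lower (median 0.082).

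Other oxidoreductases were split, with 8 of 18 lower and a median of 0.022, or 5 of 18 and 0.13 without ImHABCL6/Uchl1 replicate 2. Beside this list and the next 2, 49.4% of all genes (64.7% at mean levels of at least 8) read lower, or 48% of all genes without that array. The oxidases that recharge the isomerases, Ero1a and Ero1b, differed by -0.068 and 0.20, and the isomerase Txndc5 by 0.071. In the glycoprotein folding cycle 9 of 18 were lower (median 0.0010), and 1 of 18 without that array (median 0.15). Uggt1, the glucosyltransferase that sends misfolded glycoproteins back to the lectins, differed by 0.18, and the glucosidase II subunits Ganab and Prkcsh by -0.14 and -0.091. Prolyl isomerases were lower in 6 of 7 cases (median -0.16), and in 5 of 7 without it (median -0.060), with cyclophilin B (Ppib) at -0.27, Fkbp11 at 0.025 and Fkbp2 at -0.24.

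Unfolded protein response genes were lower in 14 of 22 cases (median -0.052), and in 8 of 22 without ImHABCL6/Uchl1 replicate 2 (median 0.031). Lower readings were seen for 49.4% of all genes (64.7% at mean levels of at least 8), and for 48% of all genes without that array. Xbp1, the transcription factor that drives ER expansion, read 12.31, 11.74 and 11.91 in the controls and 12.13, 11.36 and 12.36 with the transgene, the same order of arrays at the top and bottom as Calr. Xbp1 differed by -0.038, its activating kinase and nuclease Ern1 by -0.14 and Atf6, a membrane-bound sensor, by 0.077. Atf4, Ddit3 and Nfya, named after their values were seen, were the 3 of the 22 that read lower in all 3 transgenic arrays than in all controls. Of all genes 5.49% did so. Ddit3 (CHOP), a transcription factor of the stress response, read 8.34, 8.48 and 8.56 in the controls and 7.59, 8.02 and 7.77 with the transgene, a difference of -0.67 (SE 0.15, limma adjusted p = 0.854). Atf4, the factor upstream of Ddit3, differed by -0.39 and Nfya, a subunit of NF-Y, by -0.42, each with a limma adjusted p of 0.983. Other stress genes of this list, also named after their values were seen, were split. Ppp1r15a differed by -1.31 (SE 0.61) and Asns by -0.72 (SE 0.29), while Trib3 differed by 0.096 and Chac1 by 0.041. ER-associated degradation genes were split at 10 of 20 lower (median 0.0064), or 6 of 20 without ImHABCL6/Uchl1 replicate 2 (median 0.080), with the ligase adaptor Sel1l at 0.24, the ligase Syvn1 at 0.14 and the mannosidase-like Edem1 at 0.21.

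**Figure D5:**
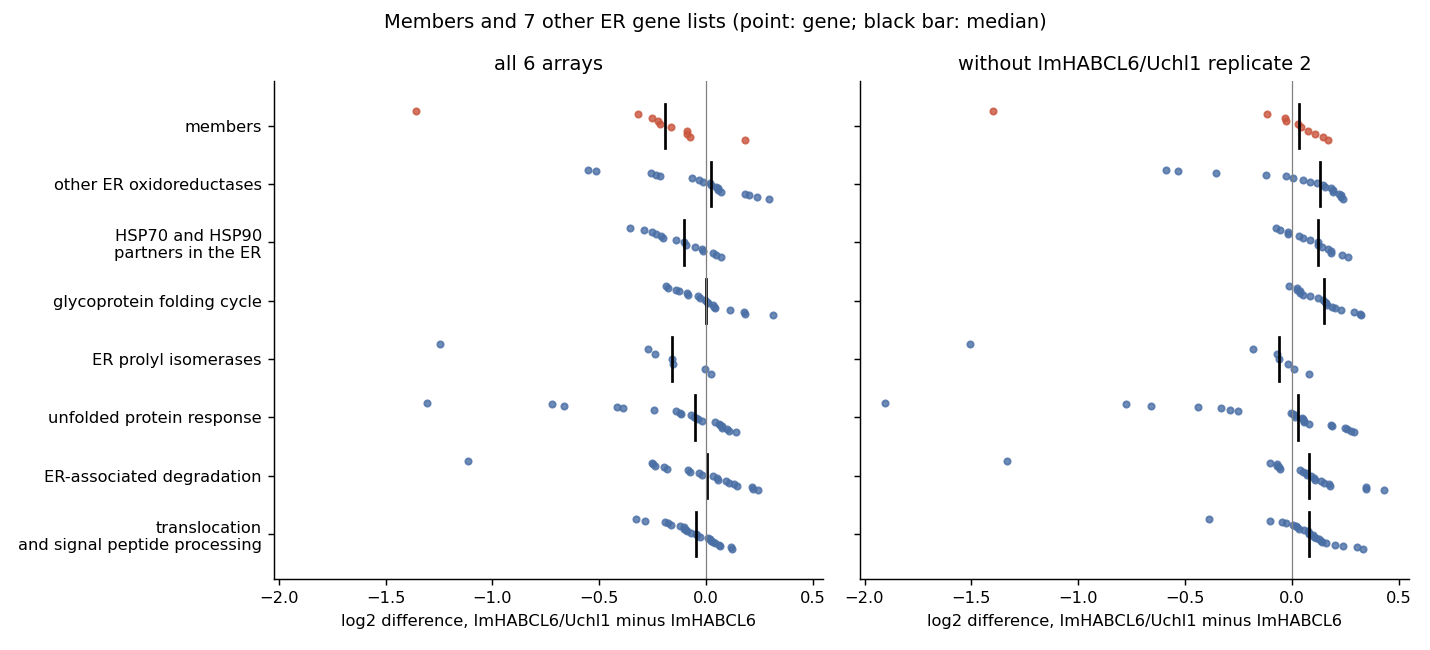
Log2 difference of each gene of the family (red) and of the 7 other ER lists (blue), ImHABCL6/Uchl1 minus ImHABCL6, with the median of each list as a black bar, for all 6 arrays (left) and without ImHABCL6/Uchl1 replicate 2 (right). The median of the family is -0.19 on the left and 0.036 on the right, and Pdia2 lies apart in both.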

How the data were processed

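RNA of preparations enriched for germinal centre B cells, from 6 mice, was measured on 1-colour arrays. The deposited values are log2 expression levels. The submitters' processing notes name RMA and Partek, and the sources used here give neither versions nor settings. RMA normalizes between arrays and compresses differences of dim probe sets.

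Probe sets with exactly 1 symbol in GEO's platform annotation (34945 of 45101) were kept, and 932 with several symbols and 9160 without one were left out, as were 64 controls. Symbols were checked through Entrez identifiers against a RefSeq table of assembly GRCm38.p6. Each of 18193 genes was read by its brightest probe set. The genotypes were compared in R 4.3.3 with limma 3.58.1, as a two-sided test whose p-values were adjusted over all genes by Benjamini-Hochberg. The number of arrays limits the precision. The fit was tested on simulated data for this comparison with 18193 genes, where it recovered 77.9% of log2 changes of 1 and 99.3% of changes of 2. The simulated noise was independent between genes and between arrays, and no deviant array such as ImHABCL6/Uchl1 replicate 2 was simulated. These shares therefore do not give the power of the real comparison, in which 0 genes passed.

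The genes, lists and tests were chosen with earlier results of these data known. Named genes are all 10 members, the first 3 measured genes of each ER list in written order, and the 5 nearest profiles to Pdia2 and Hspa5. Uchl1 is named as the transgene, and others are marked where they appear. Further marker lists of other spleen cells were also read, and no gene of any marker list passed in limma. Nothing in the labels ties mice of the same replicate number, so the fit had no block. Figures were drawn with matplotlib 3.10.9.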

Additional observations from a re-analysis of the deposited data

How the results depend on the processing

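In limma 0 genes passed in all 15 settings, with 387 to 2819 at an unadjusted p under 0.05. Pdia2 and Hspa5 read lower and Pdia5 higher wherever each was measured. Array weights, which weigh ImHABCL6/Uchl1 replicate 2 least, left 2 of 10 genes lower (median 0.14) and gave Calr 0.20, Canx 0.066, Hsp90b1 0.027, P4hb 0.18, Pdia3 0.11, Pdia4 0.20 and Pdia6 0.28. Pdia4 was 0.13 with the mean of all probe sets and 0.0041 after quantile normalization. Without suffixed probe sets (_x_at, _s_at, _a_at) 6 genes remained measured, 5 of them lower. Leaving out 1 array at a time gave 4 to 9 genes lower and 1 to 4 fully separated: 4 without ImHABCL6/Uchl1 replicate 3 (16.3% of all genes), and 2 without control replicate 2 (16.6%) or ImHABCL6/Uchl1 replicate 1 (24.4%), against 1 member and 9.44% of all genes with all 6 arrays. It gave medians of -0.32 to 0.036, and ranges of -0.24 to 0.075 for Calr, -0.27 to 0.14 for P4hb, -0.48 to 0.11 for Pdia3, -0.26 to 0.029 for Pdia4 and -0.51 to 0.17 for Pdia6. Without control replicate 1 Calr was 0.0055 and Pdia4 0.026. With a replicate block 0 genes passed and 9 of 10 members read lower; same-numbered arrays deviated together with r = 0.43, 0.19 and -0.26 across genes, so the numbers were not taken to pair the mice. Median centring, trend and robust options, and the filter on dim genes, which removed Pdia5, turned no direction. Causes of these changes were not tested.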

Other observations

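Of the 123 other ER genes, 9 (7.32%) read lower in all 3 transgenic arrays than in all controls, beside 5.49% of all genes, and 4 (3.25%) read higher in all 3, beside 3.95%. These genes were picked out after their values were seen, although Sec62 is also among the first 3 of its list. The 9 were Atf4, Ddit3, Nfya, Tmx1, Tmx4, Fkbp9, Fkbp14, Svip and Sec62, of which 7, all but Atf4 and Nfya, were lowest in ImHABCL6/Uchl1 replicate 1, as Pdia2 was. The 4 were Dnajc10, Os9, Qsox1 and Stt3b. Their limma adjusted p ran from 0.854 to 0.998, so none of the 13 passed. These counts depended on the processing. After quantile normalization 0 other oxidoreductases and 0 translocation genes were lower in all 3, thus not Tmx1, Tmx4 or Sec62. Lower in all 3 were then 2 prolyl isomerases, 3 unfolded protein response genes and 1 ER-associated degradation gene. Higher in all 3 were 2 oxidoreductases, 2 glycoprotein folding, 2 unfolded protein response and 3 degradation genes. Of all genes 841 were then lower and 1131 higher in all 3.

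The membrane-bound thioredoxin Tmx1 read 11.36, 11.64 and 11.99 in the controls and 10.83, 11.18 and 11.32 with the transgene, a difference of -0.55 (SE 0.20). Its relative Tmx4 read 9.89, 10.05 and 10.38 in the controls and 9.44, 9.62 and 9.71 with the transgene, a difference of -0.52 (SE 0.17). After quantile normalization neither Tmx1 nor Tmx4 was lower in all 3 transgenic arrays than in all controls. Svip, a small inhibitor of ER-associated degradation, read 8.63, 8.69 and 9.03 in the controls and 6.62, 8.10 and 8.28 with the transgene, a difference of -1.11 (SE 0.40). The difference of the prolyl isomerase Fkbp9 depended on the probe set. Its brighter, suffixed probe set gave -1.25 (SE 0.30), the mean of its probe sets -0.49 and its unsuffixed probe set 0.27, the opposite direction. That brighter probe set was itself dim, with means of 5.92 in the controls and 4.67 with the transgene. Fkbp14 was also dim, with means of 4.59 and 4.44. The filter on dim genes kept 4 of 7 prolyl isomerases, and 0 of these were lower in all 3 transgenic arrays.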
